A study of Homo sapiens with 4 samples.

Results

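Catecholamines are made, stored, recovered and destroyed by a small set of proteins, and 9 of their genes are described here: TH, DDC, DBH and GCH1 for synthesis, SLC18A1 and SLC18A2 for storage, SLC6A2 for reuptake, and MAOA and MAOB for breakdown. They were chosen by symbol, matched through Ensembl gene IDs, and are 9 of the 64252 IDs in the count table. The transcripts were counted by RNA sequencing of SK-N-BE(2), a human neuroblastoma line with amplified MYCN. All libraries came from this single line. The cells had received a scramble short hairpin RNA (shScb, labelled control, 2 libraries) or a hairpin against TTC8 (shTTC8, labelled TTC8-knockdown, 2 libraries). How many hairpins were used, and their sequences, is not known here, so effects of TTC8 loss and off-target effects of a hairpin cannot be told apart. Whether the 2 libraries of each group are separate cultures is not labelled, and the p-values then cover only their own spread, possibly a technical one. Changes are given as log2 changes, the log2 fold change of shTTC8 over shScb.

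Sympathetic neurons and adrenal chromaffin cells turn tyrosine into L-DOPA with tyrosine hydroxylase (TH), the rate-limiting step, and L-DOPA into dopamine with aromatic L-amino acid decarboxylase (DDC). Vesicular monoamine transporters (SLC18A1 and SLC18A2) load dopamine into vesicles, where dopamine beta-hydroxylase (DBH) converts it to noradrenaline. GCH1 starts the synthesis of tetrahydrobiopterin, the cofactor that TH needs, SLC6A2 takes released noradrenaline back into the cell, and the monoamine oxidases MAOA and MAOB of the outer mitochondrial membrane deaminate what is left in the cytoplasm. Neuroblastoma arises from this sympathoadrenal lineage, and many tumours secrete catecholamine metabolites, which are measured in urine for diagnosis.

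The libraries held 51168727 and 55331449 counts in shScb and 38284663 and 40863047 in shTTC8. TTC8, the target, had 9888 and 10398 counts in shScb and 1130 and 1268 in shTTC8. The labelled cell type was checked against 10 adrenergic neuroblastoma markers, all of which passed the low-count filter, with summed levels of 11070 to 11354 CPM (counts scaled to a common library size) in shScb and 9389 to 9678 in shTTC8. Much of that sum was MYCN, at a mean of 5738 CPM with shScb against 3766 with shTTC8. The markers went both ways: 5 of the 10 were called lower and 2 higher, beside 16.7% and 15.2% of all tested genes, and CHGB, a granule protein gene, averaged 554 CPM with shScb against 1478 with shTTC8. The dopaminergic neuron genes LMX1A, LMX1B and FOXA2, the adrenal cortex factor NR5A1, the Schwann cell factor SOX10 and the endothelial and T cell genes PECAM1 and CD3E had 0 counts in every library. Of the other dopaminergic and adrenal cortex markers, EN1 had 34 to 65 counts a library and STAR 92 to 150. Both were called higher, and STAR shares 338 exonic bases with ASH2L, which had 2518% of its counts. Some transcripts associated with other cell types were present: the summed level of 8 fibroblast markers was 683 to 705 CPM in shScb and 464 to 479 in shTTC8, with 6 of the 7 tested called lower and 1, THY1, called higher, beside the same 16.7% and 15.2%. COL1A2 had 7 and 5 counts in shScb and 0 in shTTC8. Summed levels of 6 endothelial and blood markers were 16.5 to 17.4 CPM in shScb and 3.48 to 4.25 in shTTC8. Most of that sum was PTPRC, at a mean of 15.4 CPM with shScb against 3.27 with shTTC8. VWF had 71 and 55 counts in shScb and 5 and 4 in shTTC8, and CD68 was not called. The part of these transcripts in the results below was not tested. In bulk samples fewer cells of a type and less RNA per cell cannot be told apart.

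The sequences just upstream of 3 of the genes are shown because DBH and MAOA were among the genes that fell, and MAOB is the paralog of MAOA that had no reads. They are the 250 bases before a RefSeq transcription start (GRCh38.p14), written 5′ to 3′ on the strand of the gene. The RefSeq table used holds such windows for 5 of the 9 genes, DBH, DDC, SLC18A2, MAOA and MAOB, and not for TH, GCH1, SLC18A1 and SLC6A2. The DBH window is chr9:133636113-133636362 on the plus strand. GENCODE 29 starts DBH and MAOA earlier than these RefSeq transcripts do, so both windows lie within the annotated gene spans. Those of MAOA (chrX:43656049-43656298, plus strand) and MAOB (chrX:43882451-43882700, minus strand) belong to genes that lie tail to tail, 19786 bases apart. Capitals mark 4 motifs on either strand: GGGCGG, the box bound by Sp1-type factors; ATTA, the core bound by homeodomain factors such as PHOX2A; CAGCTG, an E-box bound by basic helix-loop-helix factors; and TGACG, the core of cyclic AMP response elements. Adjoining or overlapping matches appear as a single run of capitals.
DBH: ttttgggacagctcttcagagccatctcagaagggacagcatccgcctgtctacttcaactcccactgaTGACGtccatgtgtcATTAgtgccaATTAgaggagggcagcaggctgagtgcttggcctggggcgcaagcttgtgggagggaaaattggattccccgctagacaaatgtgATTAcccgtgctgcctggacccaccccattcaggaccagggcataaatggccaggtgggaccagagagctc
MAOA: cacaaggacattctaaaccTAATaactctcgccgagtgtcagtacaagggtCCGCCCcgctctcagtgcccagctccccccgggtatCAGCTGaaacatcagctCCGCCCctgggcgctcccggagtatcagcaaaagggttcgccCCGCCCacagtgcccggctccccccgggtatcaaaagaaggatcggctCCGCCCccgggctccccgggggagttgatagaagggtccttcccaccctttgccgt
MAOB: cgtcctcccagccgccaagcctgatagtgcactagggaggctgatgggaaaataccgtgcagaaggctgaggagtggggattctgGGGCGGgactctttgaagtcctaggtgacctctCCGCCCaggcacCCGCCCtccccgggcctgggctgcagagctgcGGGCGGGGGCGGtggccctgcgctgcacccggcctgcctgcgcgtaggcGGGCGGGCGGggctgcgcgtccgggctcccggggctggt

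The DBH window held ATTA 3 times, starting at positions -166, -156 and -71 from the transcription start, and TGACG once at -181, with no GGGCGG or CAGCTG. The MAOA window held GGGCGG 4 times, at -199, -146, -104 and -56, with CAGCTG at -163 and ATTA at -231. The MAOB window held GGGCGG 7 times and none of the other motifs. The start used upstream of DDC differs between RefSeq transcripts: its 2 windows held ATTA 4 times and 1 time and none of the other motifs. The window of SLC18A2 held GGGCGG 3 times and TGACG 2 times. Such matches are common, since ATTA occurs in 47.4% of the 35116 RefSeq windows of this length, GGGCGG in 42.6%, TGACG in 21.2% and CAGCTG in 14%. A match is a description of the letters and was not tested for binding.

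Among the 8 genes that passed the low-count filter, the 4 synthesis genes and MAOA fell in shTTC8, SLC6A2 and SLC18A1 rose, and SLC18A2 was not called. MAOB had 0 counts and was not tested. By edgeR's quasi-likelihood test at an adjusted p of 0.05, 7 of 8 were called, beside 31.9% of all 19610 genes tested. The 5 lower genes stand beside a background of 16.7%, and the 2 higher genes beside 15.2%. The median log2 fold change of the 8 was -0.49, and that of all tested genes was 0.0035. In all 8 the libraries of the groups did not overlap, which was so for 65.5% of tested genes.

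**Figure D1:**
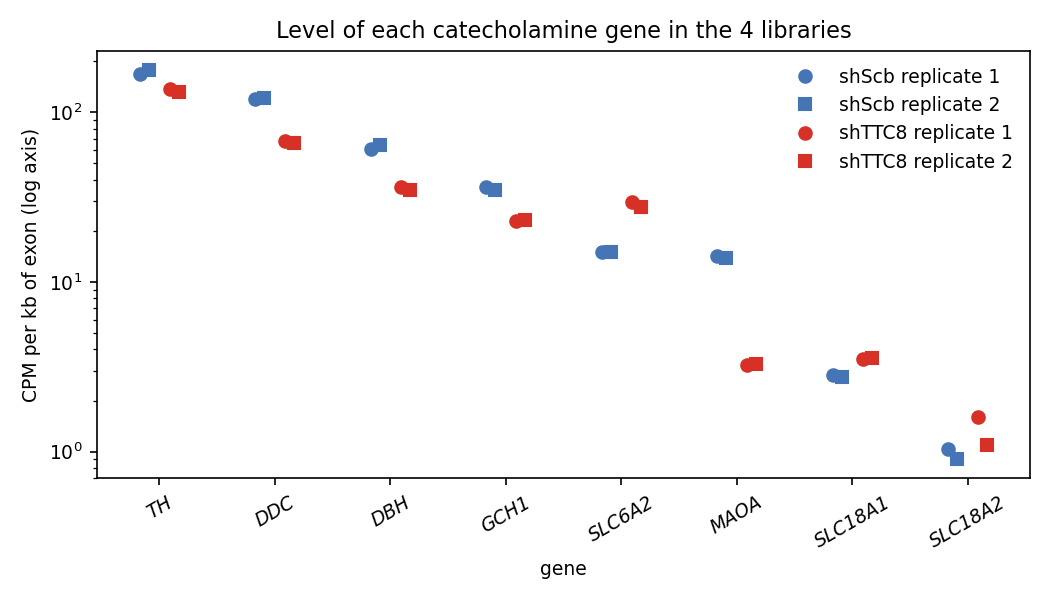
Level of the 8 detected catecholamine genes in each library, in CPM per kilobase of exon on a log axis, with genes ordered by their shScb mean; circles are replicate 1 and squares replicate 2. TH was highest in both groups, SLC6A2 lay above GCH1 in the shTTC8 libraries only, and MAOA fell below SLC18A1 there; MAOB, with 0 counts, is not drawn.

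Levels of different genes were compared as CPM per kilobase of exon, using the union of each gene's exons in GENCODE 29. In shScb the order was TH (173 ± 5.81, SD, n = 2), DDC (121 ± 1.32), DBH (62.1 ± 2.38), GCH1 (35.5 ± 1.05), SLC6A2 (15.0 ± 0.105), MAOA (14 ± 0.316), SLC18A1 (2.80 ± 0.0609) and SLC18A2 (0.973 ± 0.0954). No neighbours in this order overlapped between libraries, although SLC6A2 and MAOA lay close, at 14.9 to 15.1 and 13.8 to 14.2. In shTTC8 the order was TH (134 ± 4.28), DDC (66.9 ± 0.969), DBH (35.7 ± 0.886), SLC6A2 (28.8 ± 1.37), GCH1 (23.1 ± 0.227), SLC18A1 (3.52 ± 0.0398), MAOA (3.25 ± 0.0418) and SLC18A2 (1.34 ± 0.354). Again no neighbours overlapped between libraries. The order thus differed at 2 places: SLC6A2 moved above GCH1, and SLC18A1 above MAOA. Exon unions overstate the length of a gene whose cells use a short transcript, so these are approximate levels.

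The genes of synthesis all had lower transcript levels in shTTC8. TH (ENSG00000180176, chromosome 11, 2163929 to 2171877, minus strand) stood at 548 and 574 CPM in the shScb libraries and at 446 and 426 CPM in the shTTC8 libraries. Both shTTC8 values lay under both shScb values, and TH fell by 0.36 on the log2 scale (SE 0.06, edgeR adjusted p = 3.26e-04), leaving 77.7% of the shScb level. Among all tested genes, 38.5% had a larger absolute log2 fold change than TH. It was the smallest of the 4 falls.

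DDC (ENSG00000132437, chromosome 7, 50458436 to 50565457, minus strand), the decarboxylase that follows TH, stood at 376 and 382 CPM in shScb and at 212 and 208 CPM in shTTC8. It had the largest fall of the synthesis genes, with a log2 change of -0.85 (SE 0.06, edgeR adjusted p = 7.99e-08). Of its shScb level, 55.3% remained. Its annotated antisense gene DDC-AS1 had 0 counts. DBH (ENSG00000123454, chromosome 9, 133635348 to 133659344, plus strand), the vesicular enzyme whose upstream window is printed above, stood at 228 and 241 CPM in shScb and at 137 and 132 CPM in shTTC8. Its log2 change was -0.80 (SE 0.06, edgeR adjusted p = 2.07e-07), with 57.5% remaining. The antisense gene DBH-AS1, which shares 118 exonic bases with it, had 1.61% of its counts.

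GCH1 (ENSG00000131979, chromosome 14, 54842008 to 54902852, minus strand), the first enzyme of tetrahydrobiopterin synthesis, stood at 107 and 103 CPM in shScb and at 67.7 and 68.6 CPM in shTTC8. The groups were far apart beside the spread within them, and its log2 change was -0.62 (SE 0.06, edgeR adjusted p = 3.40e-06). Of the shScb level, 65.1% remained. The calls of TH, DDC, DBH and GCH1 held in each of 14 alternative fits, in which their log2 fold changes ranged from -0.50 to -0.32, -0.88 to -0.81, -0.92 to -0.76 and -0.65 to -0.54.

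**Figure D2:**
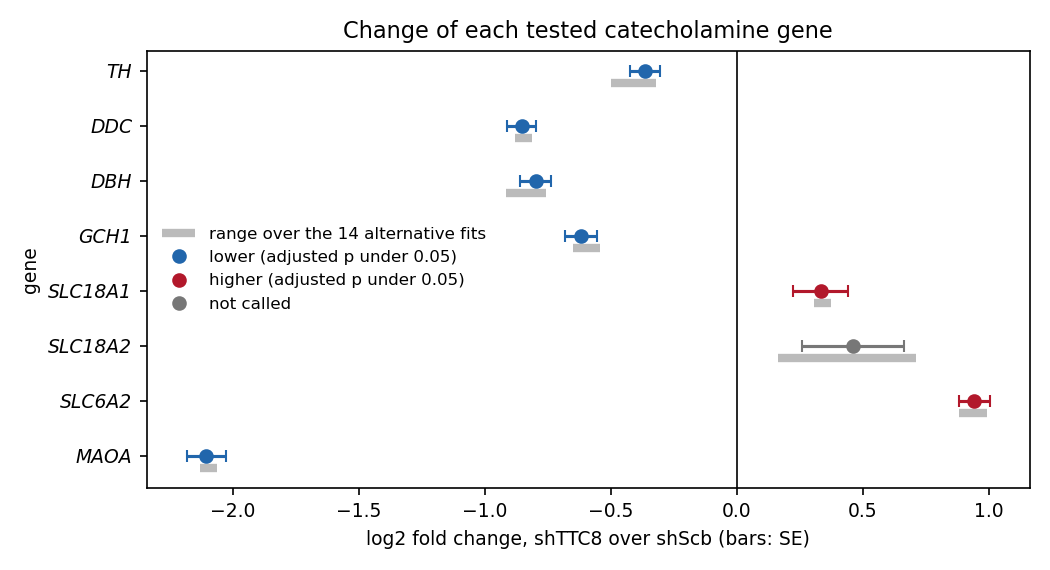
Log2 fold change of shTTC8 over shScb for the 8 tested catecholamine genes; points with bars are edgeR estimates with SE, grey bands are the range over 14 alternative fits, and colours give the call. The 4 synthesis genes and MAOA lie left of 0 in every fit, MAOA near -2.1, and the 3 transporters lie right of 0, with the widest band for SLC18A2.

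The proportions among the synthesis genes differed between the groups' libraries. Ratios of counts per exon kilobase within a library do not depend on how libraries are scaled. DBH over TH was 0.358 and 0.360 in the shScb libraries and 0.264 and 0.267 in the shTTC8 libraries. DDC over TH was 0.711 and 0.688 in shScb and 0.492 and 0.504 in shTTC8. Both ratios were thus lower in each shTTC8 library than in either shScb library, with log2 differences of -0.43 and -0.49. An exact permutation test over 2 against 2 libraries, two-sided, gave p = 0.333 for each, the smallest it can give, so no call can be made from the ratios alone.

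**Figure D3:**
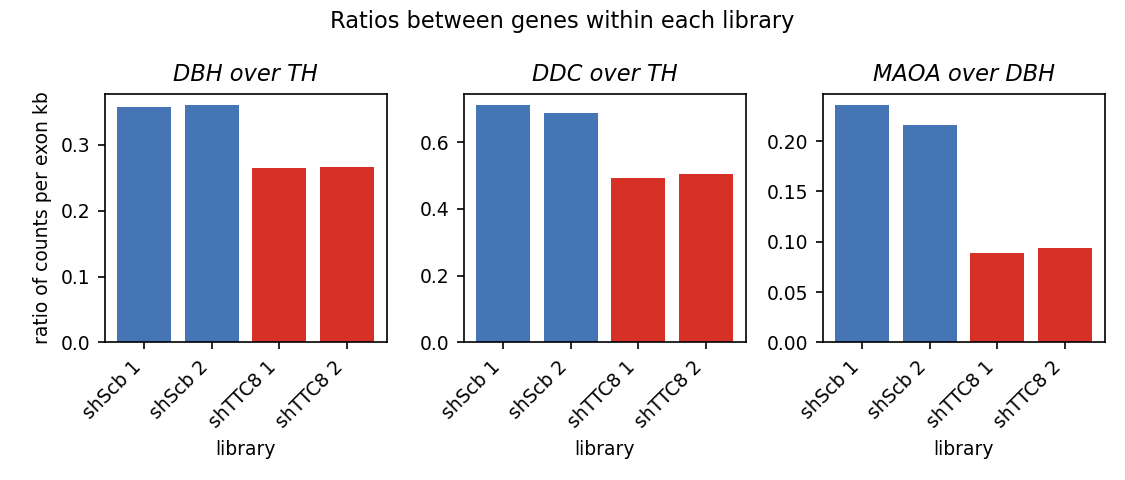
Ratios of counts per exon kilobase between pairs of catecholamine genes, 1 bar per library, with axes from 0. DBH over TH, DDC over TH and MAOA over DBH were each lower in both shTTC8 libraries than in both shScb libraries, for example 0.264 and 0.267 against 0.358 and 0.360 for DBH over TH.

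Of the transporters, 2 rose and SLC18A2 was not called. SLC6A2 (ENSG00000103546, chromosome 16, 55655604 to 55706192, plus strand), the noradrenaline transporter, stood at 82.3 and 81.5 CPM in shScb and at 163 and 152 CPM in shTTC8. Both shTTC8 values were well above the shScb pair, at 192% of its mean, and the log2 change was 0.94 (SE 0.06, edgeR adjusted p = 5.77e-08). Only 9.58% of tested genes had a larger absolute change. A gene on the same strand, AC136621.1 (ENSG00000278928), shares 977 exonic bases with SLC6A2, 17.9% of its exonic length. That gene had 28.6% of the counts of SLC6A2 and rose with it, from 25.1 to 42.8 CPM, so reads of the pair may not have been separated.

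SLC18A1 (ENSG00000036565, chromosome 8, 20144855 to 20183206, minus strand), the vesicular transporter typical of endocrine cells, stood at 11.1 and 10.8 CPM in shScb and at 13.7 and 13.9 CPM in shTTC8. The rise was small, with a log2 change of 0.33 (SE 0.11, edgeR adjusted p = 0.0328). The call was lost without shScb replicate 1 or 2 (edgeR adjusted p = 0.0528 and 0.0987), without shTTC8 replicate 1 or 2 (0.133 and 0.144), without a low-count filter (0.0841) and with DESeq2 (0.131). The direction was the same in all 14 alternative fits, at 0.31 to 0.37.

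SLC18A2 (ENSG00000165646, chromosome 10, 117241073 to 117279430, plus strand), the vesicular transporter typical of neurons, stood at 4.31 and 3.75 CPM in shScb and at 6.59 and 4.52 CPM in shTTC8. These values came from 187 to 256 counts a library. The difference was not called (log2 change 0.46, SE 0.20, edgeR adjusted p = 0.103). It depended on the shTTC8 libraries: without replicate 2 the log2 fold change was 0.71 (edgeR adjusted p = 0.0246), and without replicate 1 it was 0.16 (edgeR adjusted p = 0.711). SLC18A2 also shares 2157 exonic bases, 52.0% of its exonic length, with PDZD8 on the opposite strand. PDZD8 had 1197% of the counts of SLC18A2, and whether reads were counted by strand is not known. Reads assigned to SLC18A2 may therefore include reads of PDZD8 or leave out its own. PDZD8 itself averaged 57.2 CPM with shScb against 54.3 with shTTC8, a difference that was not called (edgeR adjusted p = 0.461).

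SLC18A1 was the more abundant vesicular transporter transcript per exon kilobase. SLC18A1 over SLC18A2 was 2.73 and 3.05 in shScb and 2.2 and 3.26 in shTTC8, and the groups overlapped (exact permutation p = 1). SLC6A2 over SLC18A2 was 14.5 and 16.5 in shScb and 18.7 and 25.5 in shTTC8, without overlap (exact permutation p = 0.333, the smallest possible). Both ratios carry the uncertainty of SLC18A2.

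MAOA had the largest change of the 8. The gene (ENSG00000189221, chromosome X, 43654907 to 43746824, plus strand) encodes the oxidase that prefers serotonin and noradrenaline. It had 3975 and 4140 counts in shScb and 692 and 751 in shTTC8, or 78.6 and 76.2 CPM against 17.8 and 18.1 CPM. Replicates differed by little beside the gap between groups, and MAOA fell by 2.11 on the log2 scale (SE 0.08, edgeR adjusted p = 2.15e-10), leaving 23.2%. Of all tested genes, 1.42% had a larger absolute change, and its log2 fold change was the 141st lowest. The call held in 14 alternative fits, at -2.13 to -2.06. Relative to DBH within a library, MAOA went from 0.236 and 0.216 in shScb to 0.0888 and 0.0936 in shTTC8, counts per exon kilobase (exact permutation p = 0.333, the smallest possible).

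MAOB (ENSG00000069535, chromosome X, 43766611 to 43882447, minus strand), whose enzyme prefers phenylethylamine, had 0 counts in all 4 libraries. A count of 0 allows up to 3 counts, or 0.0593 and 0.0552 CPM in shScb and 0.0772 and 0.0725 CPM in shTTC8. Per exon kilobase, MAOA was therefore at least 693-fold and 722-fold higher than MAOB in the shScb libraries and at least 121-fold and 131-fold higher in the shTTC8 libraries. These bounds take 3 counts per library for MAOB, and they cover counting error only. Of the 7 tested fibroblast markers, 6 were lower, as MAOA was, by unequal amounts. The log2 changes of DCN, LUM and COL1A1 were -3.27, -2.63 and -2.07, and those of COL3A1, PDGFRB and PDGFRA were -0.42, -0.41 and -0.34. THY1 was higher, at 0.19. The part of such transcripts in the fall of MAOA was not tested.

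The genes whose 4 libraries looked most like those of a catecholamine gene were found by Euclidean distance between log2 CPM values centred on each gene's mean, among 11314 other named genes with at least 5 CPM. With 4 libraries in 2 groups, this mainly finds genes with a change of the same size. Nearest to MAOA were C7 (distance 0.037), a complement component, DPT (0.0943), which encodes the matrix protein dermatopontin, and ZNRF3 (0.143), a ubiquitin ligase that removes Wnt receptors. C7 stood at 307 and 306 CPM in shScb and at 71.9 and 73.0 in shTTC8. Nearest to DBH were L3HYPDH (0.024), EFNA2 (0.0253) and CHPT1 (0.0283). Nearest to TH were SERBP1 (0.0147), SERAC1 (0.0181) and the neural transcription factor SOX11 (0.0182). Nearest to SLC6A2 were the calcium pump gene ATP2B3 (0.0194), DPF1 (0.028) and STX1A (0.0398), which encodes syntaxin 1A of the synaptic fusion machinery. The nearest tested protein-coding genes on each side of the 8 were also looked at, a choice made after values had been seen. They lay 4215 to 1731261 bases away. Of these 16 genes, 9 were called (56.2%, beside 31.9% of all genes), 6 of them in the direction of their catecholamine neighbour. Both neighbours of DBH fell, FAM163B by 0.77 and SARDH by 0.81 on the log2 scale. IGF2, next to TH, rose by 0.69. CASK and EFHC2, 1731261 and 401057 bases from MAOA, were not called (log2 changes 0.14 and -0.55).

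The rest of the pathway was read from 7 lists with 76 genes, of which 75 matched an ID and 57 were tested. They held 17 higher and 16 lower genes, or 57.9% called beside the 31.9% of all genes, with a median log2 fold change of -0.04. Without shTTC8 replicate 2, 8 were higher and 14 lower. The listed transcription factors were mostly lower, whereas the other lists were mixed. That list holds SP1, CREB1, REST and EGR1 besides factors of the noradrenergic programme.

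**Figure D4:**
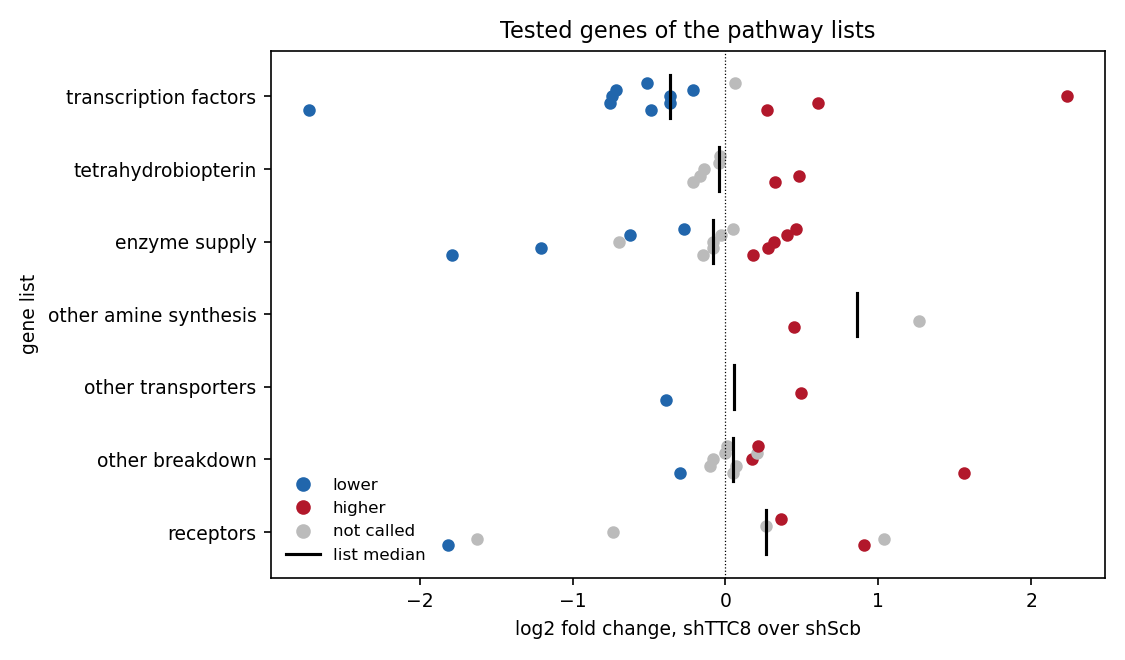
Log2 fold change of shTTC8 over shScb for the 57 tested genes of 7 lists around catecholamine metabolism, each point a gene coloured by its edgeR call, with a black bar at the list median. Transcription factors lie mostly left of 0, with a list median of -0.36, and EGR1 is the highest of them at 2.23.

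Of 13 tested transcription factors, 9 fell and 3 rose (median -0.36), or 92.3% called beside 31.9% of all tested genes. PHOX2A, a homeodomain factor that drives the noradrenergic programme, stood at 761 and 789 CPM in shScb and at 528 and 558 in shTTC8. The groups did not overlap, and its log2 change was -0.51 (SE 0.06). SP1 changed by -0.74 (SE 0.06) and the immediate early factor EGR1 by 2.23 (SE 0.10). PHOX2A shares 29 exonic bases with INPPL1, which had 24.5% of its counts. GATA3 changed by -0.49 (SE 0.06). Among the other calls, GATA2, TFAP2B, REST and CREB1 were lower and ISL1 and INSM1 higher. Of these, CREB1 lost its call without shScb replicate 1 (edgeR adjusted p = 0.134) and without shTTC8 replicate 1 or 2 (0.0825 and 0.325), and ISL1 and INSM1 lost theirs without shTTC8 replicate 2 (0.0701 and 0.213). CREB1 also lost its call under library size alone (0.094), non-robust fitting (0.0541), limma-voom (0.0601) and the GC offset (0.459, with a log2 change of -0.06 in place of -0.22). INSM1 also lost its call without a low-count filter (0.055), with DESeq2 (0.0576) and with the GC offset (0.0551). REST shares 23 exonic bases with NOA1, which had 987% of its counts.

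Of the 7 other genes of tetrahydrobiopterin synthesis and recycling, 2 rose and none fell (median -0.05). These 28.6% called lie below the 31.9% of all tested genes, so the list did not stand out. PTS and SPR, which act after GCH1, rose by 0.32 (SE 0.09) and 0.48 (SE 0.12). PTS lost its call without shTTC8 replicate 2 (edgeR adjusted p = 0.119) and SPR without shTTC8 replicate 1 (0.0624). Of 15 genes that supply or activate the synthesis enzymes, 5 rose and 4 fell (median -0.08), or 60% called beside the same 31.9%. CYB561, the vesicle membrane cytochrome that passes electrons to the ascorbate used by DBH, changed by -0.62 (SE 0.06), from 99.4 and 106 CPM to 66.0 and 67.3 CPM. The 14-3-3 genes, whose proteins bind phosphorylated TH, were split. YWHAZ stood at 667 and 626 CPM in shScb and at 268 and 291 in shTTC8 (log2 change -1.21, SE 0.07), whereas YWHAG and YWHAH rose by 0.32 (SE 0.06) and 0.41 (SE 0.06). The amino acid transporter gene SLC7A8 changed by -1.79 (SE 0.27). ATOX1, a copper chaperone, rose by 0.46 (SE 0.09) but shares 130 exonic bases with G3BP1, which had 1064% of its counts.

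PNMT, which methylates noradrenaline to adrenaline, had 6 to 32 counts a library and was not called (edgeR adjusted p = 0.131). The serotonin enzyme gene TPH2 had 0 counts, and TPH1 had 4 to 11. FEV, a further gene read as a serotonergic marker, averaged 20.8 CPM with shScb against 37.6 with shTTC8. It was called higher (log2 change 0.85, SE 0.09, edgeR adjusted p = 4.35e-06). MOXD1, a relative of DBH in sequence, stood at 180 and 173 CPM in shScb and at 239 and 243 in shTTC8, a rise of 0.45 (SE 0.06, edgeR adjusted p = 3.86e-05) where DBH fell. Among other transporters, the dopamine transporter gene SLC6A3 had 2 to 4 counts a library, and the serotonin transporter gene SLC6A4 had at most 6. SLC29A4, the low-affinity plasma membrane monoamine transporter, stood at 141 and 147 CPM in shScb and at 109 and 111 in shTTC8 (log2 change -0.39, SE 0.06), and shares 81 exonic bases with TNRC18, which had 111% of its counts. SLC18A3, the vesicular acetylcholine transporter, rose by 0.50 (SE 0.17, edgeR adjusted p = 0.0419). That call was lost without shScb replicate 1 (edgeR adjusted p = 0.109) and without shTTC8 replicate 2 (0.345). It was also lost without a low-count filter (0.104), with non-robust fitting (0.0596), with DESeq2 (0.135), with limma-voom (0.0539) and with the GC offset (0.135). Of the other cholinergic markers, CHAT had 1 and 0 counts in shScb and 10 and 11 in shTTC8. CHAT was called higher (edgeR adjusted p = 0.00881), from counts near 0. SLC5A7 had 4 to 10 counts a library and was not tested.

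Of 11 tested other breakdown genes, 3 rose and 1 fell (median 0.05), or 36.4% called, near the 31.9% of all tested genes. The aldehyde dehydrogenase gene ALDH2 changed by -0.30 (SE 0.07) and lost its call without shTTC8 replicate 1 (edgeR adjusted p = 0.0644). ALDH1A1 had 0 counts. AKR1B1 rose by 0.21 (SE 0.06) and ALDH7A1 by 0.18 (SE 0.06), and both lost their calls without shTTC8 replicate 1 (edgeR adjusted p = 0.17 and 0.171) or replicate 2 (0.0708 and 0.226). Both also lost them without a low-count filter (0.0512 and 0.107). ALDH7A1 lost its call without shScb replicate 1 (0.0569) and with the replicate block (0.0657) as well. SULT1A1 had 22 and 39 counts in shScb and 71 and 66 in shTTC8, and its rise is uncertain because of near-identical paralogs.

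Receptors for the products were few. Of 14 adrenergic and dopamine receptor genes, 7 were tested and 4 had 0 counts in every library. Of the 7, 2 rose and 1 fell, or 42.9% called beside the 31.9% of all tested genes. ADRA2C, an alpha-2 adrenergic receptor gene, stood at 19.0 and 20.1 CPM in shScb and at 36.4 and 36.9 in shTTC8, a log2 change of 0.91 (SE 0.09, edgeR adjusted p = 1.81e-06). Its relative ADRA2B stood at 3.88 and 2.87 CPM in shScb and at 0.721 and 1.18 in shTTC8 (log2 change -1.82, SE 0.29, edgeR adjusted p = 2.51e-04). The 2 genes thus moved in opposite directions, without overlap between groups in either. DRD2 rose by 0.36 (SE 0.12, edgeR adjusted p = 0.0345). The call was lost without shScb replicate 1 (edgeR adjusted p = 0.13) and without shTTC8 replicate 1 or 2 (0.101 and 0.182). It was also lost without a low-count filter (0.0896), with DESeq2 (0.131) and with the GC offset (0.122).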

How the data were processed

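RNA was sequenced from 4 libraries of SK-N-BE(2) cells, made from TRIzol-extracted total RNA with the Illumina TruSeq RNA kit, per the labels' protocols. The deposited table holds raw whole-number counts per Ensembl gene, not normalized by the authors. HISAT2 2.2.0 and hg38 are named per the submitters' processing notes, and the read counter and the annotation it used are not given in the sources. Symbols came from a gene name table, and positions, exon lengths and overlaps from GENCODE 29 (GRCh38).

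In R 4.3.3 with edgeR 4.0.16, genes kept by filterByExpr (19610) were scaled by TMM and tested by the quasi-likelihood F test with robust fitting, two-sided, Benjamini-Hochberg adjusted over all tested genes at 0.05. SE was computed by dividing the log2 change by the square root of F. CPM use TMM-scaled library sizes, log2 CPM a prior count of 2, and errors are SDs over 2 libraries. The biological coefficient of variation was 10.5%. The limit for 0 counts is 3 counts. Tests were tried on simulated data: of 50 genes each, 22% changed 1.25-fold, 48% changed 1.5-fold, 52% changed 2-fold and 84% changed 4-fold were recovered among 19610, and 0.0361% of unchanged genes were called.

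The 9 genes and the lists were chosen with earlier results of these data known. Named were the 9 genes, TTC8, called list members (up to 6 by smallest p), list genes at or near 0, genes sharing exons, and for MAOA, DBH, TH and SLC6A2 the 3 nearest in pattern. Chromosomal neighbours, PNMT, CD68 and further called list members were named after their values were seen. Some list genes are counted but not reported here by name. The alternatives tried were scaling by RLE or by library size only, no or a stricter low-count filter, DESeq2 1.42.0, limma 3.58.1 (voom), non-robust fitting, a replicate block, a threshold of 0.01 and leaving out each library. After seeing the data, counts thinned to 1 depth and a GC content offset were added.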

Additional observations from a re-analysis of the deposited data

How the results depend on the processing

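The 5 lower genes (TH, DDC, DBH, GCH1 and MAOA) and SLC6A2 kept their calls in each of 14 alternative fits. The count of higher genes among the 9 was 2, and 1 without a low-count filter, with DESeq2 and at an adjusted p under 0.01. With any library left out, SLC18A1 was no longer among the higher genes called. Higher genes in the 7 lists numbered 17, then 11 without a low-count filter and 10 at an adjusted p under 0.01, and 8 to 17 with a library left out. Over all genes, 2974 were higher, 1917 at an adjusted p under 0.01, and 1880 to 3395 with a library left out. The causes were not tested, beyond the stricter threshold. Where a library is left out, the lone sample of its group is assumed to vary like the other group.

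With a library left out, the log2 change of the ratio of SLC18A1 to SLC18A2 ranged from -0.39 to 0.18, reversing without shTTC8 replicate 1. With the replicate number as a block, 5 of the 9 genes were lower and 2 higher, and 3092 of all genes were higher. Same-numbered libraries deviated from their group means with r = 0.0317 across genes, and the labels do not say that numbers pair samples. Of the pathway genes' calls, the block ended those of YWHAE and ALDH7A1 (edgeR adjusted p = 0.0567 and 0.0657). Depth limits SLC18A2, PNMT, SULT1A1 and ADRA2B, among others, and bounds MAOB.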
